A study of Mus musculus with 9 samples.

Results

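The 9 Hedgehog pathway genes described here are the ligand genes Shh, Ihh and Dhh, the receptor gene Ptch1, the inhibitor gene Hhip, the transducer gene Smo and the transcription factor genes Gli1, Gli2 and Gli3. They were set against a list of CHD7 binding sites (peaks) in mouse cardiac progenitor (CP) cells. A peak was given to a gene when its midpoint fell in the regulatory domain of that gene. Each of 21911 protein-coding genes had such a domain, which ran from 5 kb upstream to 1 kb downstream of 1 transcription start site (TSS) and was then extended on each side until it met the basal part of a neighbouring domain, or by at most 1 Mb. By this rule 12 of 3761 peaks, 0.319% of the list, lay in the domains of the 9 genes.

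CHD7 is a chromatin remodelling enzyme that uses ATP to move nucleosomes and has no DNA sequence preference of its own. The cells were wild-type (WT) throughout, from embryonic stem cells derived from C57BL6 mice, and were collected at day 5 of differentiation towards cardiomyocytes. CUT&RUN, in which an antibody guides a nuclease to the protein and the released DNA is sequenced, was done with anti-CHD7. IgG was the negative control, and input libraries were also sequenced. There were 3 replicates of each and 9 libraries in all. The 3 anti-CHD7 replicates were deposited as 1 joined list of chromosome, start and end, made from peaks called against IgG and found in more than 1 replicate. The list holds no read count, height or replicate value, so the depth of each library and the spread between replicates are unknown here and no difference below was tested. A peak present in few cells cannot be told apart from one present in many, and the cell type could not be checked against marker genes because the list holds no expression values.

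Hedgehog ligands are secreted proteins that bind the membrane receptor Patched. Binding relieves the block that Patched places on Smoothened, and GLI transcription factors then switch from repressors into activators of target genes. In the embryo, Hedgehog signals from endoderm to the cardiac progenitors of the second heart field are known to be needed for growth of the outflow tract and for septation of the atria.

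CHD7 peaks lay in the domains of Shh, Ihh, Hhip, Gli2 and Gli3, and none lay in those of Dhh, Ptch1, Smo and Gli1. Gli3 had 5 peaks, Gli2 had 3, Shh had 2, and Ihh and Hhip had 1 each. The share of members with a peak was thus 55.6%, against 22.7% of all genes, but the domains of these genes were long. Their median domain length was 373558 bp, compared with 90182 bp over all genes.

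To show the DNA at these sites, the central 200 bp of 6 of the 12 peaks are given. They are both peaks of the Shh domain, the peak of the Ihh domain, the peaks inside the Gli3 gene and the peak of the Hhip domain. All are the plus strand of the mouse assembly GRCm38, the sequence that mm10 carries, and capitals mark a match to a motif described below, GATA in peak2744 and GLI with 1 mismatch in peak1713. Peak numbers are the order in the list. The windows are chr5:28453542-28453741, chr5:28749686-28749885, chr1:75035437-75035636, chr13:15504702-15504901, chr13:15613119-15613318 and chr8:80177405-80177604, in the order of the lines.
peak983 (Shh): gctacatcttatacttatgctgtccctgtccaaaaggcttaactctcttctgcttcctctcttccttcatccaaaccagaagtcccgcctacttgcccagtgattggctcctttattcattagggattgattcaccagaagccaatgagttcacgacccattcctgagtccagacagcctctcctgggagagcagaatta
peak984 (Shh): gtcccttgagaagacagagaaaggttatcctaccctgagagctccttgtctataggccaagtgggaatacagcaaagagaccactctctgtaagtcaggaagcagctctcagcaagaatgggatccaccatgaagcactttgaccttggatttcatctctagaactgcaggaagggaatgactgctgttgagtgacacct
peak72 (Ihh): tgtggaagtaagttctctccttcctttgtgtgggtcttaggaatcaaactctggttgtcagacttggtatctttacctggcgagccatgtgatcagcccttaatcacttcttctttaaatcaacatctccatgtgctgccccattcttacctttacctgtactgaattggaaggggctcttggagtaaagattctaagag
peak2743 (Gli3): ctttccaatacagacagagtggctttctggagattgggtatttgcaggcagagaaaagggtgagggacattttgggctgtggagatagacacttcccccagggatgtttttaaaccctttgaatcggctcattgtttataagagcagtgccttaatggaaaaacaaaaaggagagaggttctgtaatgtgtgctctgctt
peak2744 (Gli3): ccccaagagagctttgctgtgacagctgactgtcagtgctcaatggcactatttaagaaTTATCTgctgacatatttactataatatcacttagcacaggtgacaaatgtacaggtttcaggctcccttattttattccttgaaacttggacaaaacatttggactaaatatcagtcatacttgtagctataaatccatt
peak1713 (Hhip): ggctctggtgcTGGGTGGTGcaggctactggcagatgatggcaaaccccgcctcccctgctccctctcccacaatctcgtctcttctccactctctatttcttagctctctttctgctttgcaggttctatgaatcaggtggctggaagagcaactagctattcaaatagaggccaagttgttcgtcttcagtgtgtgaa

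**Figure D1:**
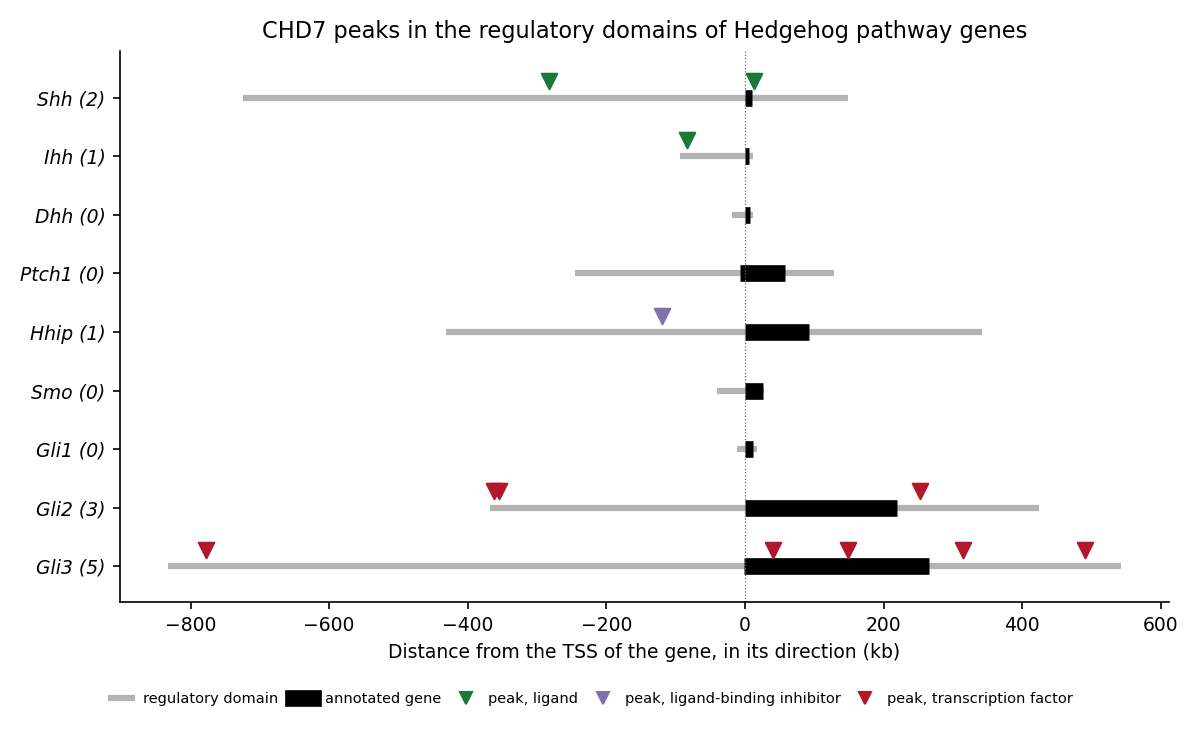
Regulatory domains (grey), annotated genes (black) and CHD7 peak midpoints (triangles) of the 9 Hedgehog pathway genes, drawn to scale by distance from the TSS in kb, with upstream to the left and the number of peaks beside each gene name. All 12 peaks lie more than 10 kb from the TSS, and the 4 genes without a peak include those with the shortest domains.

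Among the ligand genes, Shh, which encodes the most widely used ligand of the embryo, had 2 peaks. The gene occupies positions 28456815 to 28467256 of chromosome 5 on the minus strand, and its domain of 872820 bp was bounded by the genes Rbm33 and Rnf32. Peak983 (28453303 to 28453981, 679 bp) was intergenic, 3173 bp past the end of the gene, with its midpoint 13614 bp downstream of the TSS. It was the closest of the 12 peaks to a Hedgehog pathway TSS, and 8.06% of all genes had a peak as close or closer. Repeats made up 50.8% of its bases, against a median of 13.2% over all peaks. Peak984 (28749493 to 28750078, 586 bp) lay 282530 bp upstream of the TSS, in intron 3 of the antisense RNA gene 9530036O11Rik, which starts within Shh on the other strand. Shh was the closest protein-coding gene to both peaks, although each also lay in the domain of a neighbour, Rbm33 at 136465 bp for peak983 and Rnf32 at 446211 bp for peak984. Of the 1279 genes with a domain at least as long as that of Shh, 259 (20.3%) had 2 or more peaks.

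Ihh encodes the ligand best known from cartilage and gut. The gene lies at positions 74945315 to 74951672 of chromosome 1 on the minus strand, and its domain of 105040 bp between Cfap65 and Nhej1 held peak72 (75034372 to 75036702). At 2331 bp this was the widest of the 12 peaks, wider than 98.6% of the list. Its midpoint was 83865 bp upstream of the Ihh TSS and in intron 2 of Nhej1, a DNA repair gene whose introns are known to hold enhancers of Ihh. The TSS of Nhej1 was closer, at 11102 bp. Among the members with a peak, Ihh had the shortest domain, though it was longer than the median of 90182 bp over all genes. Its density of 9.52 peaks per Mb was the highest of the 9 genes, a value that rests on this 1 peak.

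Dhh, the ligand gene used in gonads and peripheral nerve, had no peak. Its domain on chromosome 15 was 30751 bp long between Rhebl1 and Lmbr1l, and at the density of the whole list 0.0437 peaks would fall in a domain of that length. The closest peak was peak3214 at 83395 bp upstream of the TSS, in the domains of the tubulin genes Tuba1a and Tuba1c. Dhh was not in a region poor in peaks: 11 peaks lay within 1 Mb of its TSS, the most of the 9 genes, against a median of 4 and quartiles of 2 and 7 over all genes.

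Ptch1, which encodes the receptor that holds Smoothened inactive and is itself a target of the pathway, had no peak in a domain of 373558 bp on chromosome 13 between Fancc and Ercc6l2. Of the 4 genes without a peak it had the longest domain, longer than those of 84.9% of genes. Of the 3306 genes with a domain at least as long, 1495 (45.2%) had a peak. The closest peak, peak2824 (63408271 to 63409075), lay 157062 bp downstream of the TSS and 28072 bp outside the domain, in those of Fancc and 2010111I01Rik. The stretch without a peak around the Ptch1 TSS was 503300 bp long, and 7 peaks lay within 1 Mb.

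Hhip encodes a membrane protein that binds and sequesters the ligands, and is also a target of the pathway. Its domain of 772041 bp on chromosome 8, which met that of Abce1 on one side, held 1 peak. Peak1713 (80177043 to 80177967, 925 bp) was intergenic, 119499 bp upstream of the Hhip TSS, which was the closest of a protein-coding gene. The nearest other peak was 656516 bp away, against a median of 131168 bp over all peaks. Of the 1502 genes with a domain at least as long as that of Hhip, 638 (42.5%) had a peak.

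Smo, which encodes the transducer Smoothened, had no peak in its domain of 68270 bp on chromosome 6 between Tspan33 and Ahcyl2. The closest peak, peak1216, was 222822 bp upstream of the TSS in the domain of Kcp. At the density of the whole list a domain of this length would hold 0.0970 peaks. There were 9 peaks within 1 Mb of the TSS.

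Gli1 encodes the GLI factor that acts as an activator and is the standard readout of pathway activity. It had no peak, and its domain of 28704 bp on chromosome 10 between Arhgap9 and Inhbe was the shortest of the 9. The closest peak, peak2253, lay 139121 bp upstream of the TSS, in the domains of R3hdm2 and Stac3, and 4 peaks lay within 1 Mb. The other two GLI genes had far longer domains and held 8 of the 12 peaks.

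Gli2, whose product is the main activator of the early response to ligand, lies at positions 118834132 to 119053619 of chromosome 1 on the minus strand, in a domain of 792302 bp between Tfcp2l1 and Inhbb. Peak123 (118800930 to 118801388, 459 bp) was intergenic, 32973 bp past the end of the gene and 252460 bp downstream of its TSS. The other two lay at the far upstream limit of the domain, 7100 bp apart. Peak124 (119408491 to 119409552, 1062 bp) was intergenic and 355403 bp from the Gli2 TSS but 13226 bp from that of Inhbb, an inhibin beta subunit gene. Peak125 (119415662 to 119416582, 921 bp) was 362503 bp from the Gli2 TSS and 6126 bp from that of Inhbb, in UTR sequence of exon 2 of Inhbb. Thus each of the 3 peaks was closer to a gene other than Gli2, and peak125 was the member peak nearest to a domain limit, 5125 bp inside it. No peak lay in the Gli2 gene, and the stretch around its TSS without a peak was 607863 bp long. Of the 1448 genes with a domain at least as long, 135 (9.32%) had 3 or more peaks.

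Gli3 encodes the GLI factor that acts mainly as a repressor. It lies at positions 15463235 to 15730026 of chromosome 13 on the plus strand, in a domain of 1375603 bp between AW209491 and Inhba that was longer than those of 98.5% of genes. Its 5 peaks were spread over that domain, and the smallest gap between neighbouring peaks was 108417 bp. Peak2743 (15504514 to 15505089, 576 bp) lay 40822 bp downstream of the TSS in intron 2 of Gli3, and peak2744 (15612970 to 15613468, 499 bp) lay 149239 bp downstream in intron 3. These were the only 2 of the 12 peaks inside a Hedgehog pathway gene, and for both Gli3 was the closer of the genes of the peak.

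The other three peaks of the Gli3 domain were outside the gene. Peak2742 (14686623 to 14687046, 424 bp) was 777145 bp upstream, the farthest of all, and 56587 bp from the TSS of AW209491. Peak2745 (15777493 to 15779208, 1716 bp) was intergenic, 48325 bp past the end of the gene, 314371 bp from the Gli3 TSS and 233500 bp from that of Inhba. Peak2746 (15954760 to 15955326, 567 bp) lay 225017 bp past the end of the gene, in intron 1 of the pseudogene B230303A05Rik and 56808 bp from Inhba, another inhibin beta subunit gene. Only 36 genes, 0.164% of all, had 5 or more peaks. Among the 333 genes with a domain at least as long as that of Gli3, 143 (42.9%) had a peak and 7 (2.1%) had 5 or more.

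**Figure D2:**
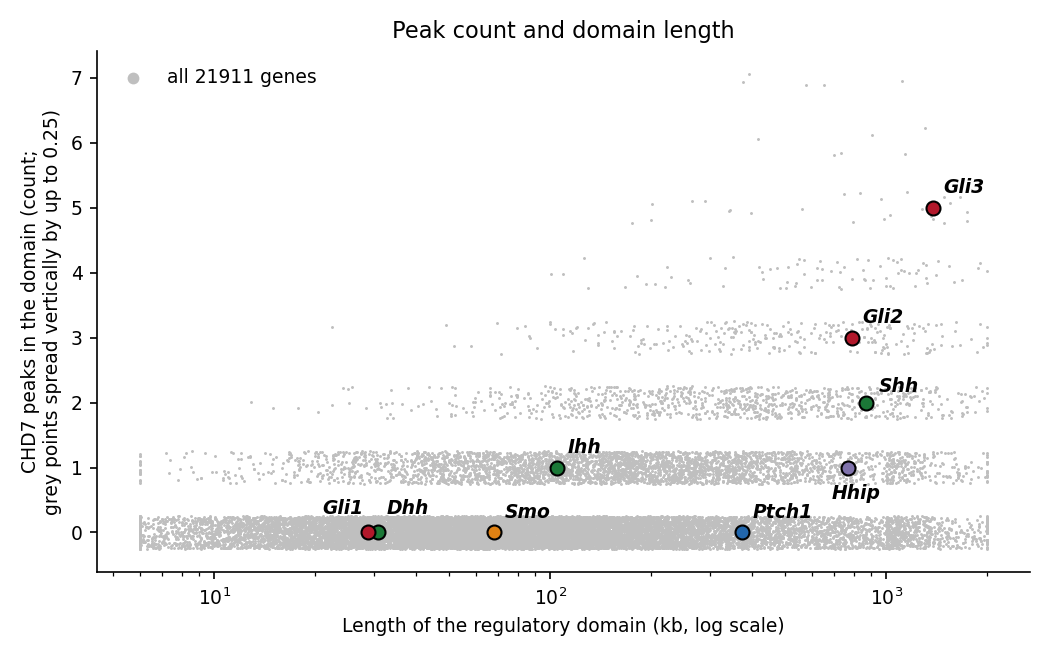
Number of CHD7 peaks in the regulatory domain against the length of the domain in kb (log scale) for all 21911 genes (grey points, spread vertically so that they can be seen) and the 9 Hedgehog pathway genes (coloured by role). Gli3, Gli2 and Shh lie at 5, 3 and 2 peaks among genes with long domains, whereas Ptch1 has none in 373558 bp.

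Because a longer domain can hold more peaks, all genes were split by domain length into 4 classes of equal size. A peak was found in 7.98% of genes in class 1 (the shortest domains), in 14.4% in class 2, in 25.4% in class 3 and in 43.1% in class 4 (the longest). Dhh and Gli1 were in class 1 and Smo was in class 2, and these 3 genes had no peak. Ihh, with 1 peak, was in class 3. Class 4 held Shh, Ptch1, Gli2, Gli3 and Hhip, of which 4 had a peak. Added together, the 9 domains covered 4.42 Mb, 0.167% of the sequenced genome, and held 2.72 peaks per Mb against 1.42 per Mb over the genome. At that genome density 6.28 peaks would lie in them, 5.57 in the 5 domains that held peaks and 0.712 in the 4 that did not. For Gli3 the count was 5 where 1.95 would lie at genome density, for Gli2 3 and 1.13, for Shh 2 and 1.24, for Hhip 1 and 1.10, and for Ptch1 0 and 0.531.

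The peaks lay far from the TSSs of the Hedgehog pathway genes. No member had a peak within 10 kb of its TSS, a distance at which 6.32% of all genes had one. With only 9 members, a count of 0 cannot be told apart from that share. The median distance from peak to member TSS was 267495 bp and the range 13614 to 777145 bp, whereas the median over all 6819 pairs of gene and peak was 57398 bp. Of the 12 peaks, 10 (83.3%, Wilson 95% confidence interval 55.2 to 95.3) were over 50 kb from the TSS, against 53.5% of all pairs, and 7 (58.3%, interval 32.0 to 80.7) were over 200 kb away, against 19.4%. These intervals cover counting error only, and peaks of 1 domain are not independent of each other. All but peak984 of the 7 peaks over 200 kb away lay in the Gli2 or Gli3 domain and were closer to another gene. With each peak given only to the nearest TSS, 60% of the members' peaks were over 50 kb away. No share over all pairs was taken by that rule. Of the 12, 6 were upstream of the member TSS, against 44% of all pairs. Long domains allow long distances, so this pattern and the length of the domains move together, and the part of domain length in it was not tested.

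**Figure D3:**
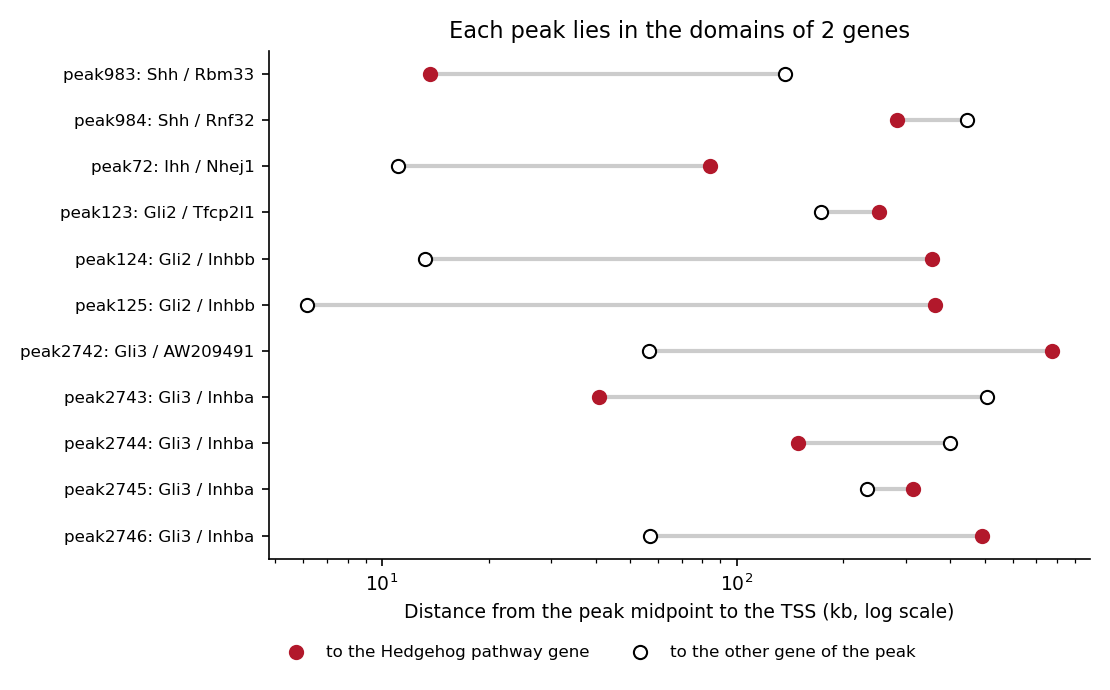
Distance in kb (log scale) from the midpoint of 11 of the 12 peaks, all but that of Hhip, to the TSS of the Hedgehog pathway gene (red) and to that of the other gene whose domain holds the peak (open circles). The Hedgehog pathway gene is the closer in 4 of these peaks and the other gene in 7.

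Each of the 12 peaks also lay in the domain of 1 other gene, as did 81.1% of all peaks in the list. The Hedgehog pathway gene was the closer of the pair in 5 peaks, both of Shh, peak2743 and peak2744 of Gli3 and that of Hhip, and the other gene was closer in 7. The domains of all 3 Gli genes ended at an inhibin beta subunit gene, Inhbe beside Gli1, Inhbb beside Gli2 and Inhba beside Gli3. As a result 4 of the 5 peaks of Inhba were peaks of Gli3, and both peaks of Inhbb were peaks of Gli2. If each peak was given only to the nearest TSS, Shh kept 2 peaks, Hhip 1 and Gli3 2, and Ihh and Gli2 had 0. Proximity in the sequence does not say which gene of a pair a peak acts on. In the annotation, 6 of the 12 peaks were intergenic, 5 were in an intron and 1 was in a UTR exon, and of the introns 3 were those of protein-coding genes, Gli3 and Nhej1.

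The peaks differed among themselves in width and base composition. Widths ran from 424 to 2331 bp with a median of 632.5 bp, against a median of 703 bp and quartiles of 530 and 1053 bp over the list, and 5 of the 12 were wider than the list median. GC content ran from 33.0% to 53.5% with a median of 44.8%, and over the list the median was 47.5% and the quartiles 43.9% and 51.7%. Only peak124, near Inhbb, was above the list median, at 53.5%. The peaks of the Gli3 domain held the lowest values. Peak2746 had 33.0% GC, lower than all but 0.399% of the list, and peak2744 had 36.3%. Peak2745 had 39.5%, whereas peak2743, in the neighbouring intron to peak2744, had 44.1%. The ratio of observed to expected CpG was below the list median of 0.212 in 11 of the 12 peaks, with a median of 0.151. The 12 peaks lay over 10 kb from the member TSSs, whereas the list also holds peaks at promoters. GC content and CpG were not compared with those of distal peaks alone.

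**Figure D4:**
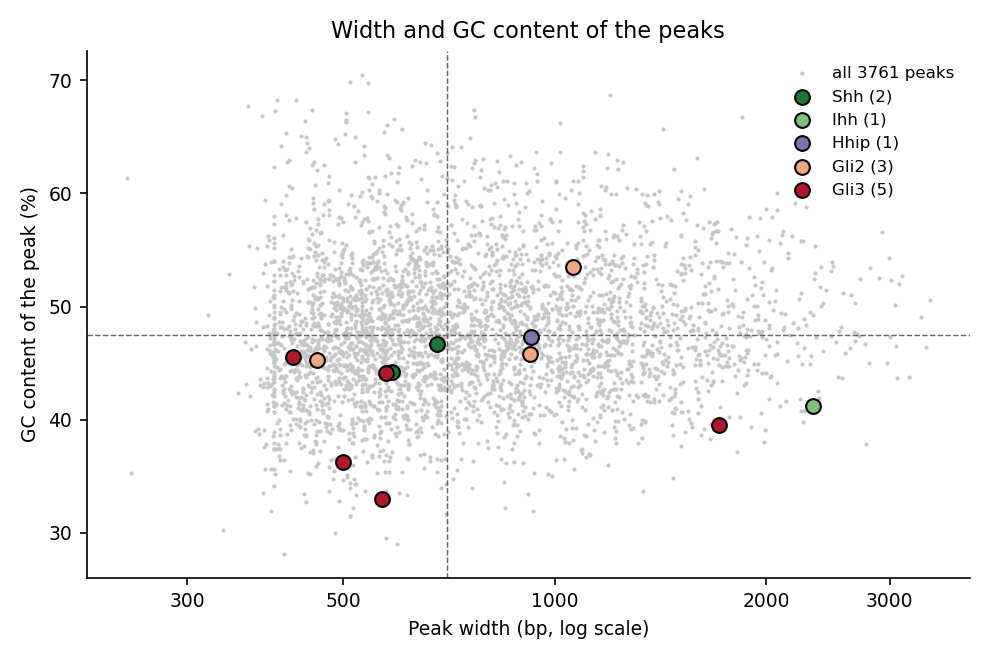
Width in bp (log scale) and GC content in % of all 3761 CHD7 peaks (grey) and of the 12 peaks in Hedgehog pathway domains (coloured by gene), with dashed lines at the list medians of 703 bp and 47.5%. A single one of the 12, in the Gli2 domain, lies above the GC median, and the lowest GC values are those of Gli3 peaks.

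GLI proteins bind the motif TGGGTGGTC, and GATA, ISL1, MEF2 and NKX2 are factors of cardiac progenitors. Matches to 11 motif patterns were searched on both strands in the central 200 bp of each peak. The exact GLI motif was in none of the 12 windows, and was in 0.16% of windows over all peaks. With at most 1 mismatch it was in 1 window, that of peak1713 at Hhip, against 5.03% of all windows. The GATA motif AGATAA was in 1 window, that of peak2744 in Gli3, against 11.8%. The NKX2 motif TNAAGTG was in 2 windows, those of peak124 and peak2742, against 11.4%, and the SP/KLF motif GGGCGG was in 1, that of peak123, against 8.69%. None of the 12 windows held the ISL1 motif CTAATNG, found in 5.13% of all windows, the MEF2 motif, in 1.89%, the CTCF core AGGGGGC, in 3.64%, the caudal motif CATAAA, in 9.12%, the T-box motif GGTGTGA, in 2.71%, or the forkhead motif GTAAACA, in 3.11%. The GLI pattern with a mismatch includes the exact one. With 12 windows a count of 0 allows a share of up to 24.2% by the Wilson interval, so none of these counts could be told apart from the share over the list, and a missing match says only that the letters are not in the window.

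Over the whole length of the peaks, GLI matches with at most 1 mismatch were found in 4 of the 12 peaks, against 19.7% of all peaks, and each carried exactly 1 mismatch. Of these matches, 4 are shown here, 1 in each peak, because GLI2 and GLI3 are themselves products of these genes. However, peak124, peak2742 and peak2745 were closer to Inhbb, AW209491 and Inhba than to Gli2 or Gli3, and binding by GLI proteins was not tested. Each line is read 5′ to 3′ on the strand of the motif, with the 9 motif bases in capitals and 10 bases on each side. The sites are chr1:119409122-119409130 on the minus strand (G4T), chr13:14686943-14686951 on the minus strand (G7C), chr13:15777829-15777837 on the plus strand (C9G) and chr8:80177416-80177424 on the plus strand (C9G) of GRCm38. In these tokens the motif base comes first and positions count from 1 at the 5′ end of the motif. The Hhip site and that of peak2745 had the same 9 bases.
peak124 (Gli2): atgatcacacTGGTTGGTCcttgaagcac
peak2742 (Gli3): agtcttcatgTGGGTGCTCtaacattgct
peak2745 (Gli3): tgggggtgagTGGGTGGTGacagtgagtg
peak1713 (Hhip): gctctggtgcTGGGTGGTGcaggctactg

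GATA matches over the whole length were found in 6 of the 12 peaks, against 36.8% of all peaks, and there were 13 in all. Peak72 in Nhej1, in the domain of Ihh, held 6 of them and peak2745 held 3, and these were the widest of the 12 peaks. The 6 sites of peak72 are shown in the order of their position, on the strand of the motif with 10 bases on each side and the motif in capitals. They start at positions 75034504, 75035057, 75035327, 75035731, 75036324 and 75036588 of chromosome 1 in GRCm38, on the plus strand except for the second and the last. None of the 6 was within the central 200 bp. The caudal motif was in 7 of the 12 peaks over their whole length, against 35.8%, and the ISL1 motif in none, against 19%.
site 1 of peak72: cttccactgaAGATAAaaaggaagtg
site 2 of peak72: gtaacagaaaAGATAAgccaaagaat
site 3 of peak72: cattacaactAGATAActaactgttc
site 4 of peak72: atcatgtgacAGATAAtattgactct
site 5 of peak72: aggggaaaaaAGATAAaagtccgcat
site 6 of peak72: aataccaaggAGATAAttaatataga

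Around these 9 genes, a list of 38 other genes of the pathway was counted in the same way. Of these, 18 (47.4%) had a peak, against 22.7% of all genes. Their median domain of 225697 bp was just above 219137 bp, the lower limit of class 4. A peak was found in 43.1% of genes in class 4 and in 25.4% in class 3. The listed genes lay in all 4 classes, so neither share is a matched background, and the part of domain length was not tested. The list was also chosen with earlier results of these data known. Without the 10 target genes, the count was 9 of 28 (32.1%). With each peak given only to the nearest TSS, 14 of the 38 listed genes had a peak, as did 3105 of all 21911 genes. In the group of co-receptors, 3 of 4 genes had a peak, each within 10 kb of the TSS, where no member had one and 6.32% of all genes did. All 4 had a domain in class 4 of length, in which 43.1% of genes had a peak at any distance. Cdon, a co-receptor that binds ligand at the cell surface, had peaks at 739 and 1858 bp from its TSS. Gas1, a membrane-anchored co-receptor, had a peak at 1542 bp, in UTR sequence of its exon. Boc, a relative of Cdon, had one at 8432 bp in intron 1 and another at 47807 bp upstream. Lrp2 had none.

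Of the 5 genes of ligand production, Scube3 (12921 bp) and Scube1 (92284 bp), which help release the lipid-modified ligand, had a peak, and Hhat, Disp1 and Scube2 had none. Of 14 intracellular transducers, 4 (28.6%) had a peak, which was close to the 22.7% of all genes and to the 25.4% of class 3, where their median domain of 134609.5 bp lay. They were the kinase gene Gsk3b, with a peak whose midpoint was 8 bp from the TSS, the kinase gene Csnk1a1 (2759 bp), the ciliary protein gene Evc2 (67819 bp) and the ubiquitin ligase gene Btrc (70198 bp). None of the 5 cilium genes had a peak, and their median domain was the shortest of the groups at 55028 bp.

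Of 10 target genes of the pathway, 9 had a peak, against 22.7% of all genes and 43.1% of genes in class 4 of domain length, where the median domain of the group lay. These genes were chosen with earlier results of these data known, and the paper already listed CHD7 peaks for Foxf1 and Osr1. The share therefore cannot show that targets of the pathway hold more peaks than other genes. Mycn and Foxa2, transcription factor genes of growth and of the floor plate and endoderm, had 5 peaks each, and Osr1, a factor of the posterior second heart field, had 3. For Osr1 the paper listed only peak2557 and peak2558. The closest peaks of Foxc2 (4938 bp), Foxl1 (6831 bp) and Foxf2 (7255 bp), which encode forkhead factors of mesoderm, were within 10 kb, and Foxc2 and Foxl1 shared peak1796. Foxf1, Foxc2 and Foxl1 lie close together on chromosome 8, so they are not separate loci in the count. For Ccnd1, a cyclin gene, the closest peak was at 11388 bp, for Foxf1 at 98595 bp and for Bcl2, a cell survival gene, at 514571 bp. The peak of Bcl2 lay in an intron of another gene. Nkx2-2 had none. The median domain of the target genes was 396871.5 bp, so the shares of these groups and their domain lengths moved together, and the part of domain length in them was not tested.

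**Figure D5:**
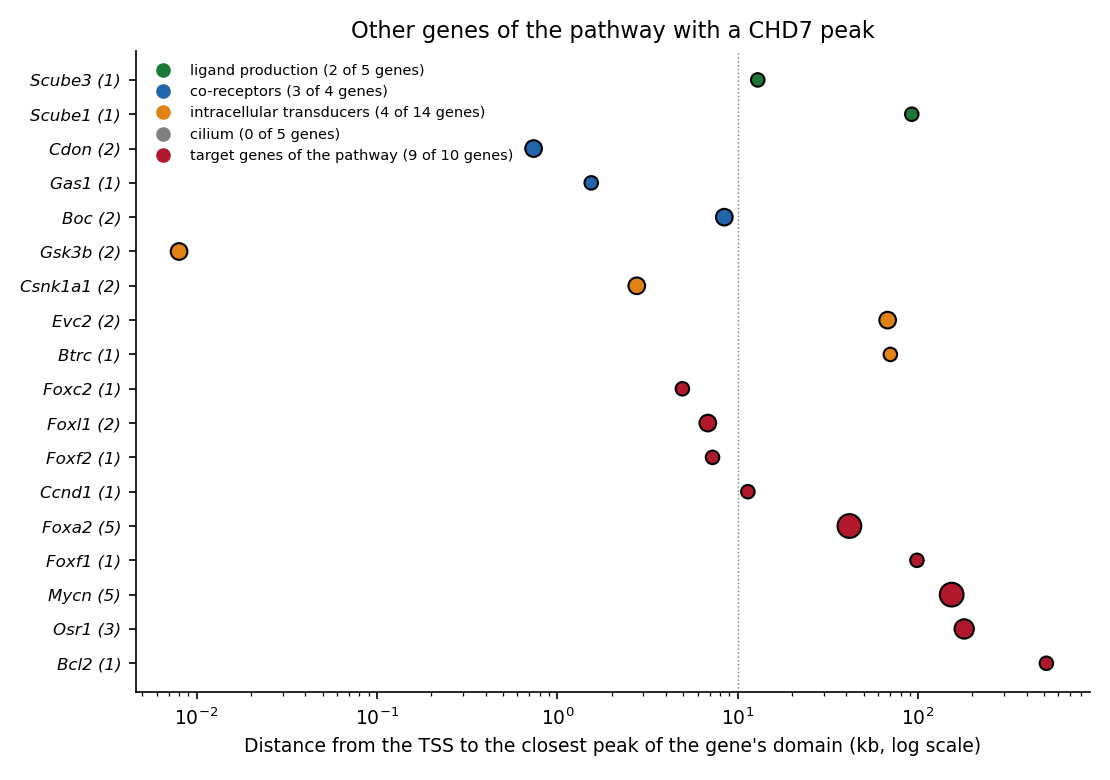
Distance in kb (log scale) from the TSS to the closest CHD7 peak of the domain for the 18 other pathway genes with a peak, coloured by role, with point size and the number beside each name giving the peaks of the domain. The 3 co-receptor genes all lie left of the dotted line at 10 kb, whereas the closest peak of a member gene was at 13614 bp.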

How the data were processed

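The authors trimmed reads with fastp 0.20.1, aligned them to mm10 with BWA 0.7.17.4, removed duplicates by unique molecular identifiers and called peaks in each sample with MACS2 2.1.2 against IgG. They kept peaks that overlapped in more than 1 replicate, and deposited 1 list of positions in bp for the anti-CHD7 group. The calling threshold and the way of joining are not given in the sources used here. The IgG libraries enter only as the control of the peak calls, and the input libraries were not used here.

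Starts were read as counted from 0. For each symbol, 1 TSS was taken from GENCODE M21 on GRCm38, with protein-coding transcripts first, then APPRIS level, then spliced length. Sequences and the repeat mask came from the GRCm38 genome. By rule, genes named are the 9 members, the other genes of their peaks, bounding and host genes, and listed pathway genes with a peak. Listed genes without a peak in 3 groups, and the genes of the closest peaks outside the domains of Dhh, Ptch1, Smo and Gli1, are named outside that rule, chosen after their values were seen. A listed pathway gene, a neighbouring gene and a motif site are not reported here, and the first was left out of the counts over the list. The members and lists were chosen with earlier results of these data known. Code was tested on simulated data. Alternatives were other TSSs, association rules, peak sets and motif windows. Python 3.11.15, numpy 2.4.6, pandas 2.3.3, scipy 1.17.1, pysam 0.24.0, matplotlib 3.10.9 and samtools 1.23.1 were used.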

Additional observations from a re-analysis of the deposited data

How the results depend on the processing

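With the basal domain alone, 0 members had a peak, with 0 peaks and 0 peaks per Mb, and 3 other pathway genes had one; no share of peaks over 50 kb could then be given. With the nearest TSS within 1 Mb, 3 members (Shh, Gli3 and Hhip) had 5 peaks, and density is not defined for rules of nearest TSSs. With peaks wider than the median, 4 members had 5 peaks (1.131 per Mb), 100% of them over 50 kb from the TSS. Shh then had none, and 9 other pathway genes had a peak. This setting kept 1877 of the 3761 peaks, so the density over the genome fell as well. Of all 21911 genes, 4979 had a peak by the main rule. The number was 693 with the basal domain alone, 3105 with the nearest TSS and 2854 with the wider peaks. With a window of 400 bp, GLI matches with at most 1 mismatch were in 3 of the 12 peaks, GATA in 3, MEF2 in 2, caudal in 4 and forkhead in 1. Over the whole peak they were in 4, 6, 2, 7 and 2, and those of T-box and NKX2 in 1 and 4. By construction these alternatives used shorter domains, fewer peaks or longer windows, and the cause of each difference was not tested. The other 47 of 69 values were within 1.5 times the reported count, or within the interval of the reported density or share. Among these, Ptch1 gained 1 peak and Gli2 fell to 1 with the rule of the 2 nearest TSSs. By that rule 6 members had 11 peaks, and 5546 of all genes had a peak.

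No paired analysis was possible because the replicates were deposited as 1 joined list, and leaving out a replicate was not possible for the same reason. The depth of the libraries is unknown.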
